A study of Homo sapiens with 12 samples.

Results

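The genes examined were 9 members of the MHC class I antigen presentation pathway, taken by symbol from a table of 35337 genes of EndoC-βH3 cells: HLA-B, HLA-C, HLA-E, HLA-F, B2M, TAP1, TAP2, TAPBP and PSMB8. The members were listed by name, although with earlier results of these data known, and all 9 were found. EndoC-βH3 is a human beta-like cell line derived from fetal pancreas, which grows because of inserted hTERT and SV40 large T antigen transgenes until a tamoxifen-activated Cre (CreER) cuts them out. In 6 libraries the cells had been made senescent by 3 weeks of 4-hydroxytamoxifen, and in the other 6 they were non-senescent controls. Whether the controls received vehicle is not stated. All 12 samples carry the same genotype label (WT), come from the same line, and have no interferon treatment in their labels. The titles mark batch A, with 2 libraries per group, and batch B, with 4 libraries per group. Nothing states that replicates were separate cultures, so p-values measure only the spread between these libraries, which may be technical.

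MHC class I molecules display peptides from inside the cell to CD8 T cells, and beta cells that display more of them are a known feature of islets in type 1 diabetes. A polymorphic heavy chain folds with the light chain β2-microglobulin and receives a peptide that the proteasome has cut and the TAP transporter has pumped into the endoplasmic reticulum. Interferons are the classical inducers of these genes, acting through IRF factors and the class I transactivator NLRC5, and NF-κB contributes at some heavy-chain genes.

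Total reads were 8873569 to 17106776 per library in batch A and 4672924 to 7063264 in batch B. A gene with 0 reads in a library may still have had up to 3 reads' worth of transcript, which is 0.175 to 0.642 ppm of the reads, and this limit covers counting error only. Values are normalised read counts, which are reads divided by the size factor of the library. The 13847 genes whose values averaged 5 or more over the 12 libraries were tested with limma, with batch as a term. A gene was called when its fold change was above 1.5 and its Benjamini-Hochberg adjusted p below 0.1. Of the members, 5 passed this filter (HLA-C, HLA-E, B2M, TAP2 and TAPBP) and 4 were below it (HLA-B, HLA-F, TAP1 and PSMB8).

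Promoter sequences of the members are relevant because several of these genes share control elements in the cell types where they have been studied. RefSeq windows of GRCh38.p14 were matched for 8 of the 9 members, and HLA-E had none. The 250 bases before the RefSeq start of transcription are shown for HLA-C and TAP2, the members that were called lower, with HLA-B as the close relative of HLA-C and B2M as the light chain. Each runs 5′ to 3′ on the strand of its gene. Distances are counted from the RefSeq start, which can differ from the gene limits printed further on, since those are from GENCODE and span all annotated transcripts. The windows of HLA-C, HLA-B and B2M lie partly or wholly inside those limits. Capitals mark matches, on either strand, to an interferon-response type motif (TTTC and TTTC separated by 2 bases), a κB-type motif (GGGGA and TCCC separated by 1 base) or a Y box (ATTGG).
HLA-C, chr6:31272093-31272342, minus strand: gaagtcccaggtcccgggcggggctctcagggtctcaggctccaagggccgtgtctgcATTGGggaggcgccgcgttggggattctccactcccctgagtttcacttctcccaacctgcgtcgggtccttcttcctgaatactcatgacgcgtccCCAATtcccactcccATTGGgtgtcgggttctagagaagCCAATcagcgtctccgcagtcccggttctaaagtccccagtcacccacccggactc
HLA-B, chr6:31357180-31357429, minus strand: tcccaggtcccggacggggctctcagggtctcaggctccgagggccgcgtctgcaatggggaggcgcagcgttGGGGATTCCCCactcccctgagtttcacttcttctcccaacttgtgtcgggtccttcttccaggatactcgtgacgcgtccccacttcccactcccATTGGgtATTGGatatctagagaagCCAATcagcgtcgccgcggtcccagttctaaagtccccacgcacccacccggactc
TAP2, chr6:32838740-32838989, minus strand: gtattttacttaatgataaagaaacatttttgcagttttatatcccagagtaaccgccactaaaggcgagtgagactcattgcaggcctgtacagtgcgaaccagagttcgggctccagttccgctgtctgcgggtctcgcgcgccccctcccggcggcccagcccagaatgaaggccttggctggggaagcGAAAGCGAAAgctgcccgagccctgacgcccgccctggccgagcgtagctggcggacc
B2M, chr15:44711267-44711516, plus strand: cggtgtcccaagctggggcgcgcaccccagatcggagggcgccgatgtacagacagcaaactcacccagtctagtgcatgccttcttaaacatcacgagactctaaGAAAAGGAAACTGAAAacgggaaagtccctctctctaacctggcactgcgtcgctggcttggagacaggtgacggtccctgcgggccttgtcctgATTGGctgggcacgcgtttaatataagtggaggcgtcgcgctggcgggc

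The interferon-response type letters were in 3.02% of the 35116 promoter windows of the same length, the κB-type letters in 0.367% and the Y box in 32.0%. HLA-C held 4 Y boxes and neither of the other motifs in this window. HLA-B held the κB-type letters 177 to 167 bases before its start, as overlapping matches on both strands, together with 3 Y boxes. TAP2 held the interferon-response type letters 58 to 49 bases before its start. B2M held them in 2 overlapping copies between 144 and 129 bases before its start. Of the members not shown, HLA-F, TAP1 and TAPBP held interferon-response type letters, at 156, 134 and 20 bases before the start, and PSMB8 held none of the motifs in either of its windows. The exact X2 box letters (TGACGNNA, in 6.55% of windows) were in none of the 10 member windows. Near matches were not counted for any motif, such as tgacgcgt in the HLA-C and HLA-B windows, which differs from the X2 letters in its last base. A motif without an exact match is therefore not shown to be absent. These matches describe the letters of the windows and were not tested for any role in the values below.

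The classical heavy chain HLA-C and the non-classical heavy chain HLA-E moved in opposite directions. HLA-C was 14.7-fold lower and HLA-E 1.70-fold higher in senescent cells, and TAP2, a subunit of the peptide transporter, was 3.53-fold lower. These sizes are on the log2(value + 1) scale and depend on the pseudocount, since the log2 fold change of HLA-C was -4.59 with a pseudocount of 0.1 and -2.70 with 8, and that of TAP2 was -2.13 and -0.99. B2M and the chaperone gene TAPBP changed by less than the fold limit. In all, 1 of the 5 tested members was called higher and 2 lower. Of these, TAP2 passed the filter only through its non-senescent level, with a mean of 17.5 against 3.81 in senescent cells. Over all tested genes, 11.6% were called higher and 11.8% lower (1605 and 1632 genes), or 1226 and 2090 genes when every library was scaled to the same total. The median log2 fold change was -0.24 over the 5 members and 0.01 over all tested genes. In bulk RNA, fewer cells that hold a transcript and less of the transcript per cell cannot be told apart. Whether the groups overlapped is given below for single genes as a description, and its share over all genes was not counted. In batch A, with 2 libraries per group, the groups can easily lie apart by chance.

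**Figure D1:**
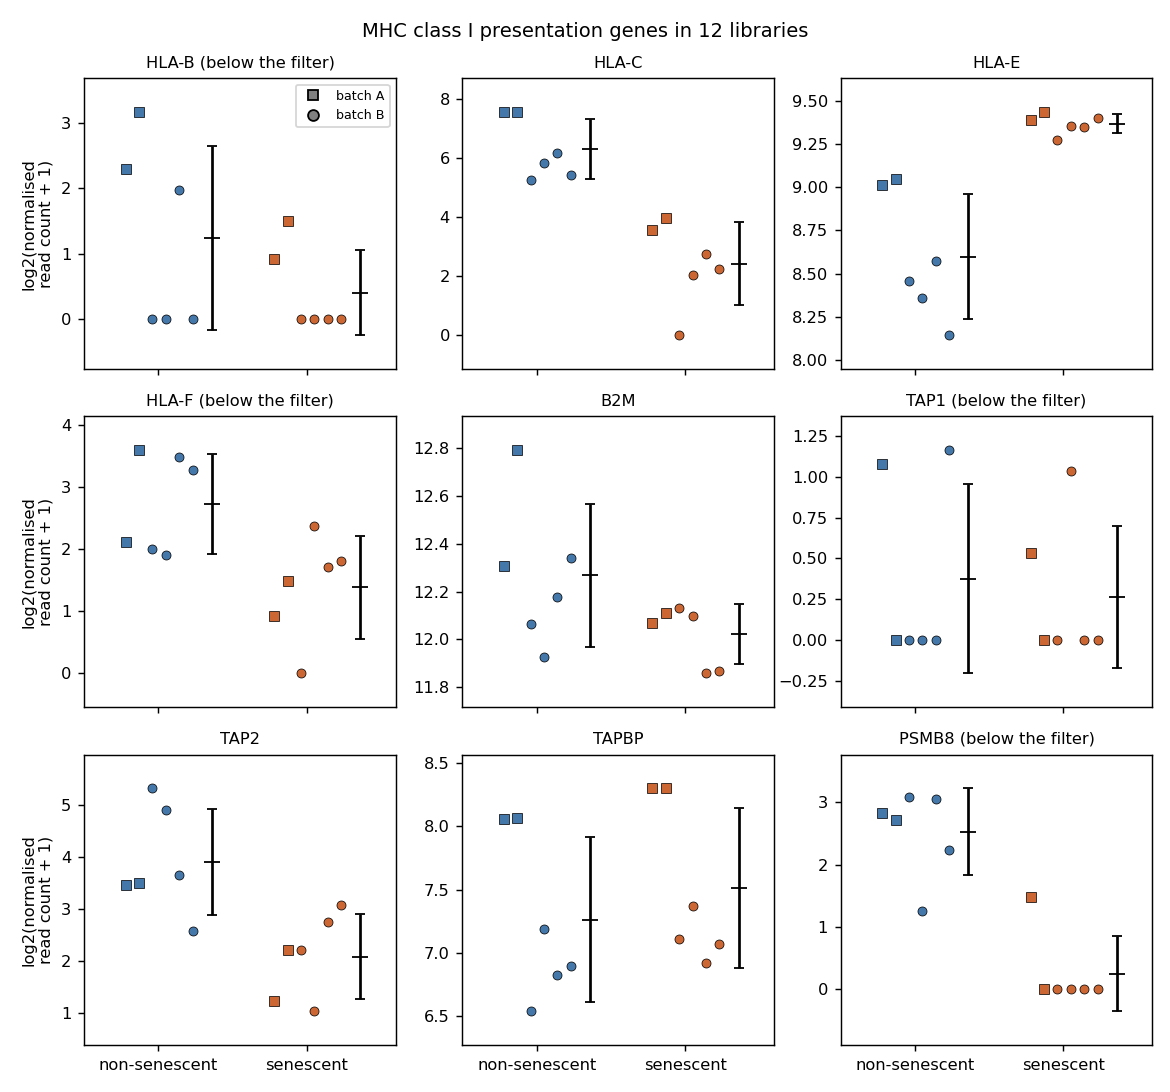
Each panel plots log2(normalised read count + 1) of 1 gene in the 6 non-senescent (blue) and 6 senescent (orange) libraries, with squares for batch A and circles for batch B, and with the mean and SD over the 6 libraries of both batches beside them. HLA-C points of the groups lie apart downward and HLA-E points apart upward, while the axes differ between panels.

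HLA-C (chromosome 6, 31268749 to 31272130, minus strand, protein-coding) encodes a classical heavy chain that presents peptides to T cells and is a ligand of inhibitory receptors on natural killer cells. In non-senescent cells it had 188 (A1), 187 (A2), 37.6 (B1), 56.4 (B2), 71.6 (B3) and 42.2 (B4) normalised read counts. In senescent cells it had 10.8 (A1), 14.5 (A2), 0 (B1), 3.15 (B2), 5.72 (B3) and 3.74 (B4). Every senescent library lay below every non-senescent library, although batch A was higher than batch B within both groups. The reads behind these values were 722 in the non-senescent and 59 in the senescent libraries, with 0 to 24 reads per senescent library. Group means were 97.1 ± 70.9 and 6.31 ± 5.36 (SD, n = 6), and the log2 fold change was -3.88 ± 0.37 (SE, limma adjusted p 2.46e-07). The two-sided exact permutation test within batches gave p = 0.00476, the smallest that its 420 arrangements allow. The fall had nearly the same size in batch A (-3.80) and batch B (-3.92), and the log2 fold changes of the batches differed by less than their error (adjusted interaction p 0.965).

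HLA-E (chromosome 6, 30489509 to 30494194, plus strand, protein-coding) encodes a non-classical heavy chain of low polymorphism, which binds leader peptides of other class I chains and is read by the receptor NKG2A on natural killer and CD8 T cells. It had 515 (A1), 528 (A2), 351 (B1), 328 (B2), 380 (B3) and 282 (B4) normalised read counts in non-senescent cells. In senescent cells the values were 669.8 (A1), 691 (A2), 618 (B1), 654 (B2), 650.1 (B3) and 675 (B4). All senescent libraries were above all non-senescent ones, and they lay closer together. Group means were 397 ± 102 and 659.6 ± 25.2 (SD, n = 6), and the log2 fold change was 0.77 ± 0.10 (SE, limma adjusted p 1.42e-05, exact permutation p 0.00476).

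The rise of HLA-E was 1.30-fold in batch A (log2 0.38) and 1.95-fold in batch B (log2 0.96). The non-senescent level differed between the batches, with a mean of 522 in batch A and 335 in batch B, while the senescent means were 680.3 and 649. The batch B log2 fold change exceeded that of batch A by 0.58 ± 0.16 (SE, limma adjusted interaction p 0.0744), in a test that 4.21% of all tested genes passed and no other tested member did. This call was lost, with adjusted p from 0.103 to 0.279, without non-senescent A1, A2 or B2 or without senescent A1, A2, B2 or B3, each left out in turn. The rise itself was called with any of the 12 libraries left out, with log2 fold changes of 0.70 to 0.82, but its size in batch A alone was under the fold limit.

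Within a library, the ratio of these heavy-chain transcripts shows how far the balance moved. For each 100 normalised read counts of HLA-E, non-senescent cells held 36.5 and 35.3 of HLA-C in batch A and 10.7 to 18.8 in batch B. Senescent cells held 1.61 and 2.10 in batch A and 0 to 0.880 in batch B. No length correction applies, because each transcript is read at its 3′ end, and the ratio is a description of genes already called in the same comparison.

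HLA-B and HLA-F were close to the limit of detection. HLA-B (chromosome 6, 31353872 to 31367067, minus strand), another classical heavy chain, had 3.89 (A1), 7.95 (A2), 0 (B1), 0 (B2), 2.92 (B3) and 0 (B4) normalised read counts in non-senescent cells. Senescent libraries had 0.898 (A1), 1.81 (A2) and 0 in all 4 of batch B. The 19 and 5 reads in all separated the groups in batch A only, and the log2 fold change of -0.83 ± 0.36 (SE) was not called in the fit without the filter (22707 genes, limma adjusted p 0.131). HLA-F (chromosome 6, 29722775 to 29738528, plus strand), a non-classical heavy chain, had 3.33 (A1), 11.1 (A2), 3.01 (B1), 2.75 (B2), 10.2 (B3) and 8.70 (B4) in non-senescent cells. It had 0.898 (A1), 1.81 (A2), 0 (B1), 4.20 (B2), 2.29 (B3) and 2.49 (B4) in senescent cells. The groups did not overlap in batch A and overlapped in batch B, where senescent B2 was above non-senescent B1 and B2. Its 38 against 13 reads gave a log2 fold change of -1.35 ± 0.49 (SE), which was called lower without the filter (limma adjusted p 0.0644, exact permutation p 0.0238).

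The fit without the filter called 5 members, HLA-E higher and HLA-C, TAP2, HLA-F and PSMB8 lower. Over its 22707 genes, 7.24% were called higher and 7.67% lower. Genes that are near 0 in senescent cells reach such a test through their non-senescent level, so this count is not evidence about the members together.

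Reads of the heavy chains can be shared. Of the 31-base words in the last 500 bases of the annotated transcript, 14.3% of those of HLA-C also occurred in another gene, nearly all of them (13.8% of its words) in HLA-B. For HLA-B the share in another gene was 13.4% and for HLA-F 6.38%, whereas no word of HLA-E, B2M, TAP1, TAP2, TAPBP or PSMB8 occurred elsewhere. The quantification divides shared reads by estimate, and the alleles of the line may differ from the reference, so values of HLA-B, HLA-C and HLA-F are uncertain in that respect and its part in the results was not tested. HLA-F overlaps HLA-F-AS1 on the other strand, and the strand setting of the counting is not stated.

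B2M (chromosome 15, 44711358 to 44718851, plus strand, protein-coding) encodes the light chain that pairs with class I heavy chains. In non-senescent cells it had 5069.8 (A1), 7091 (A2), 4276 (B1), 3893 (B2), 4625 (B3) and 5188 (B4) normalised read counts. In senescent cells it had 4292 (A1), 4421 (A2), 4491 (B1), 4388 (B2), 3712 (B3) and 3742 (B4). The groups were apart in batch A and overlapped in batch B, and non-senescent A2 stood highest. The mean was 5024 ± 1122 against 4174 ± 353 (SD, n = 6), with a log2 difference of -0.24 ± 0.10 (SE, limma adjusted p 0.0521, exact permutation p 0.0571), and B2M was not called because the difference is under the fold limit. Without non-senescent A2 the log2 fold change was -0.16 (limma adjusted p 0.145). The 31053 and 31015 reads behind B2M make counting error small, so the spread between libraries set the precision.

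TAP1 and TAP2 form the transporter that carries peptides into the endoplasmic reticulum. TAP2 (chromosome 6, 32821833 to 32838739, minus strand) had 10.004 (A1), 10.3 (A2), 39.2 (B1), 28.9 (B2), 11.7 (B3) and 4.97 (B4) normalised read counts in non-senescent cells. It had 1.35 (A1), 3.62 (A2), 3.64 (B1), 1.05 (B2), 5.72 (B3) and 7.47 (B4) in senescent cells. The groups did not overlap in batch A, and in batch B non-senescent B4 was below senescent B3 and B4. The mean fell from 17.5 ± 13.4 to 3.81 ± 2.48 (SD, n = 6), on 90 and 24 reads, with a log2 fold change of -1.82 ± 0.48 (SE, limma adjusted p 0.00584, exact permutation p 0.0143). The batches gave -1.76 (A) and -1.85 (B), and the fit gave -2.14 to -1.56 with any single library left out. TAP2 passed the filter through its non-senescent level, since its senescent mean is below 5. Another protein-coding gene of the same strand overlaps TAP2 in the annotation, so their reads may be split between them.

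TAP1 (chromosome 6, 32845209 to 32853816, minus strand) was barely detected. It had 3 reads in the non-senescent group and 2 in the senescent group, from 0 to 1.24 normalised read counts per library. No fold change can be given at this depth, and the groups were not distinguishable (exact permutation p 0.738).

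TAPBP (chromosome 6, 33299694 to 33314284, minus strand) encodes tapasin, which bridges the transporter and the heavy chain during peptide loading. It had 265.7 (A1), 266 (A2), 91.9 (B1), 145 (B2), 113 (B3) and 118 (B4) normalised read counts in non-senescent cells. In senescent cells it had 315 (A1), 315 (A2), 137 (B1), 165 (B2), 120.2 (B3) and 133 (B4). The batches gave log2 fold changes of 0.24 (A) and 0.26 (B). The step between batches was larger than any difference between groups, and the groups were apart in batch A and overlapped in batch B. The log2 fold change was 0.25 ± 0.12 (SE, limma adjusted p 0.1003, exact permutation p 0.0524), and TAPBP was not called.

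PSMB8 (chromosome 6, 32840717 to 32844679, minus strand) encodes an interferon-inducible catalytic subunit of the immunoproteasome, the proteasome form that favours class I ligands. It had 6.11 (A1), 5.56 (A2), 7.53 (B1), 1.38 (B2), 7.31 (B3) and 3.73 (B4) normalised read counts in non-senescent cells. Among senescent libraries it had 1.80 in A1 and 0 in the other 5. Reads were present in all 6 non-senescent libraries (32 reads) and in 1 senescent library (4 reads), and the groups did not overlap within either batch. PSMB8 was below the filter, and without the filter it was called lower (log2 fold change -2.28 ± 0.38 (SE), limma adjusted p 0.000383, exact permutation p 0.00476). It reached that fit through its non-senescent level, which was itself low. The gene lies among others of the pathway, and PSMB9 and the antisense gene PSMB8-AS1 overlap it and TAP1 on the other strand.

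**Figure D2:**
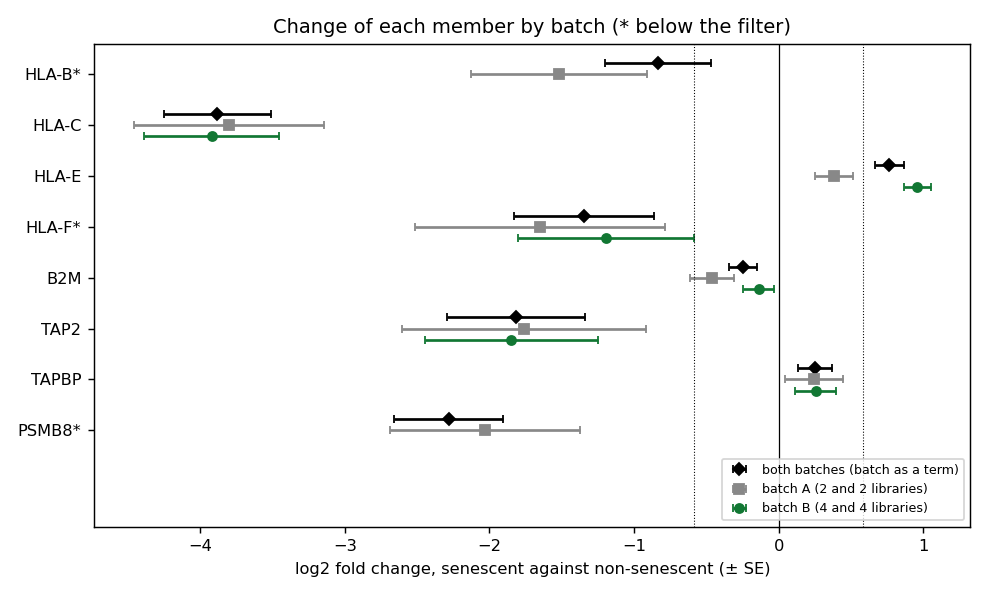
Points give the log2 fold change of senescent against non-senescent cells with its SE, for both batches together (black), batch A (grey) and batch B (green), and dotted lines mark the fold limit of 1.5. HLA-C, TAP2 and HLA-E lie at -3.88, -1.82 and 0.77, while TAP1 is left out, as are HLA-B and PSMB8 in batch B, where senescent libraries had 0 reads.

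Other genes of the pathway were described in 5 lists of 69 genes, of which 49 passed the filter, and 2 were called higher and 5 lower. Over all tested genes 11.6% were called higher and 11.8% lower, and the counts of the single lists below stand beside the same shares. No list was tested as a set. The median log2 fold change of the 49 genes was 0.00 (-0.0011). With every library scaled to the same total, 0 were called higher and 8 lower. With edgeR 1 was called higher and 6 lower, and with DESeq2 1 higher and 5 lower.

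Peptide loading and trimming held 9 genes, all tested, of which 1 was called higher and 0 lower, with a median log2 fold change of 0.38. PDIA3, the disulfide isomerase of the peptide-loading complex, averaged 1057 ± 272 in non-senescent and 1611 ± 459 in senescent libraries (SD, n = 6) and rose by 0.59 on the log2 scale (limma adjusted p 3.03e-05), just past the fold limit. The batches gave 0.44 (A), under that limit, and 0.67 (B). Calreticulin, the partner chaperone of that complex, was not called (CALR, log2 fold change 0.02, limma adjusted p 0.897). The trimming aminopeptidases of the endoplasmic reticulum were not called (ERAP1 0.37, limma adjusted p 0.351, and ERAP2 0.42, limma adjusted p 0.359).

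The list of immunoproteasome genes and their constitutive counterparts held 8 genes, of which 7 were tested, 0 called higher and 1 lower, with a median of -0.32. PSME1, a subunit of the proteasome activator PA28, fell from 237 ± 54.3 to 160.5 ± 58.6 (SD, n = 6), a log2 fold change of -0.60 (limma adjusted p 0.000276). The batches gave -0.39 (A), under the fold limit, and -0.71 (B). PSMB9, the immunoproteasome subunit that adjoins PSMB8 in the genome, had 359 ± 187 against 351.5 ± 199.995 (SD, n = 6) and was not called (log2 fold change -0.10, limma adjusted p 0.447). PSMB10 was below the filter, with 38 against 43 reads. The difference in response between PSMB8 and PSMB9 was not tested.

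The regulators numbered 26 genes, of which 24 were tested, 1 called higher and 3 lower, with a median of -0.11. JAK1, a kinase of interferon receptors, averaged 232 ± 28.0 in non-senescent and 370.3 ± 53.3 in senescent libraries (SD, n = 6) and rose by 0.67 on the log2 scale (limma adjusted p 3.79e-05). NFKB1, which encodes the p50 subunit of NF-κB, fell from 89.9 ± 9.93 to 48.1 ± 3.60 (SD, n = 6), a log2 fold change of -0.89 (limma adjusted p 4.48e-05). EZH2, the histone methyltransferase of the Polycomb complex that silences class I genes in some tumours, fell from 223 ± 59.0 to 66.9 ± 21.1 (SD, n = 6), a log2 fold change of -1.74 (limma adjusted p 5.21e-09). For JAK1, NFKB1 and EZH2 the 6 senescent libraries did not overlap the non-senescent ones. The same held for RFXAP, named after its values were seen, which was under the fold limit (log2 fold change -0.48, limma adjusted p 0.00733). Lack of overlap was therefore not particular to called regulators. RFXANK, a subunit of the RFX factor that binds class I and class II promoters, was called lower (log2 fold change -0.72, limma adjusted p 0.0399), but the batches gave -0.0047 (A) and -1.08 (B).

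IRF1, an interferon-induced transcription factor, was not called, with a log2 fold change of 0.23 (limma adjusted p 0.137). RFX5 had -0.34 (limma adjusted p 0.00949), under the fold limit. NLRC5, the class I transactivator, was below the filter, with 31 non-senescent and 5 senescent reads in all, and without the filter it was called lower (log2 fold change -1.84, limma adjusted p 0.00618). It reached that fit through its non-senescent level (mean 5.37 against 0.787), so this call is weak evidence of a change.

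Of 14 class I-like molecules and stress ligands, 6 were tested, 0 called higher and 1 lower, with a median of -0.05. ULBP2, a stress-induced ligand of the activating receptor NKG2D, averaged 40.5 ± 12.7 in non-senescent and 15.9 ± 6.75 in senescent libraries (SD, n = 6) and fell by 1.34 on the log2 scale (limma adjusted p 0.000708). HLA-G, CD1D and ULBP3 had 0 reads in all 12 libraries. Of 12 class II genes, 3 were tested and 0 were called at these limits, with a median of 0.07, and HLA-DRA and HLA-DOB had 0 reads in all libraries. Among the class II genes, HLA-DQA1 had -0.23 (limma adjusted p 0.0102), under the fold limit, at 1921 against 1653 normalised read counts, and it is named because of its level, after its values were seen.

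**Figure D3:**
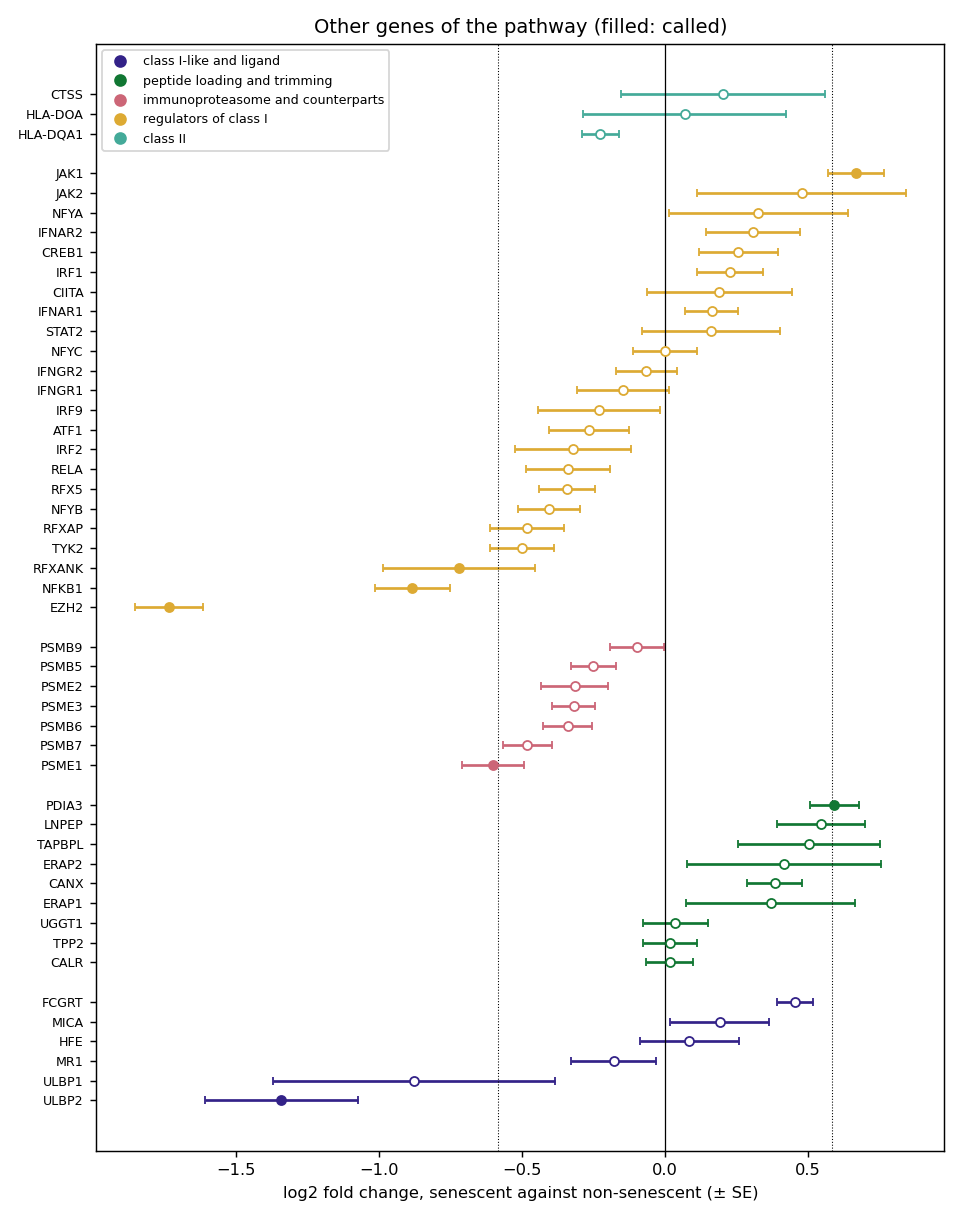
Points give the log2 fold change and SE of tested genes of the 5 pathway lists, coloured by list, filled where the gene was called, with dotted lines at the fold limit of 1.5. The 7 filled points are JAK1 and PDIA3 on the right and EZH2, ULBP2, NFKB1, RFXANK and PSME1 on the left.

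Genes around HLA-C on chromosome 6 were examined for the same direction. Within 500 kb, 25 genes were tested, of which 1 was called higher and 4 lower, with a median log2 fold change of -0.18. Over all tested genes 11.6% were called higher and 11.8% lower, and a difference of these 25 genes from those shares was not tested. The called neighbours are named here after their values were seen. TCF19 (-2.98) and CCHCR1 (-1.36), whose starts lie 114 kb from that of HLA-C, fell, as did LTB (-2.78, 310 kb away), which encodes lymphotoxin beta, and LY6G5C (-1.35, 412 kb away). DDR1, a collagen receptor kinase 396 kb away, rose (0.74). MICA, the class I-like stress ligand and the tested gene nearest to HLA-C on its other side at 128 kb, had 0.19 and was not called (limma adjusted p 0.412).

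**Figure D4:**
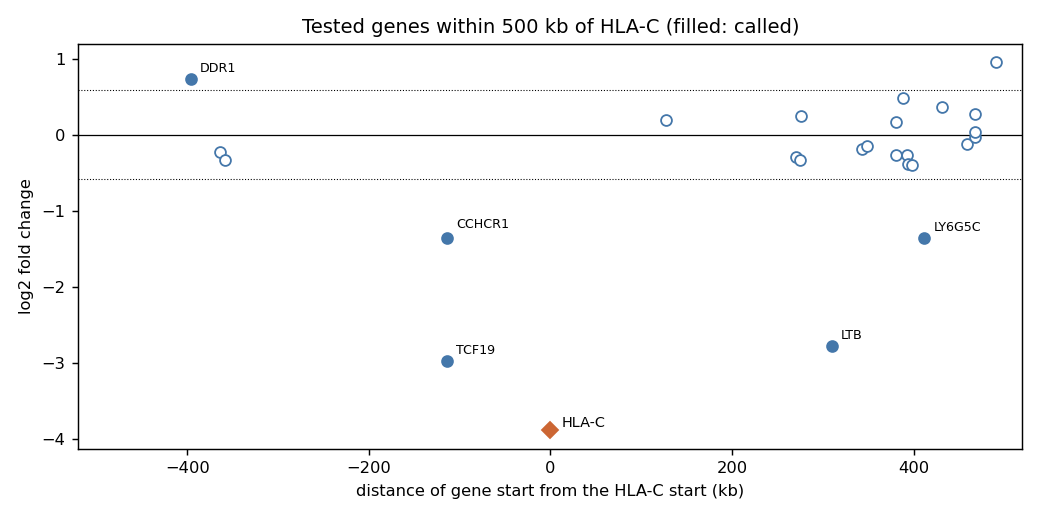
Each circle is a tested gene within 500 kb of HLA-C, plotted by the distance of its start from that of HLA-C in kb and by its log2 fold change, filled where called, with HLA-C as a diamond. Of the 25 neighbours, 4 filled circles lie below the fold limit and 1 above it, between genes that were not called.

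As a description of likeness, log2 values were centred on the mean of their batch and correlated over the 12 libraries with those of 11681 other genes, a measure that the group difference itself dominates. The genes most like HLA-C were ESPL1 (r = 0.990), CCNB2 (0.982) and CDC25B (0.980). Those most like HLA-E were ZKSCAN1 (0.983), ABCC6P1 (0.981) and ATRX (0.979). For B2M the closest were lower, with AC107871.1 at 0.889, NCL at 0.885 and EMC7 at 0.880.

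The label of the cells was checked against marker lists. All 8 beta-cell markers were tested, with 4 called higher (INS, IAPP, PDX1 and MAFA) and 1 lower (PCSK1), and INS itself had log2 fold change 2.23. Of the delta-cell markers, SST, HHEX and LEPR were all called lower, and in non-senescent cells SST was above INS in both batches (means of 277161 against 30597 normalised read counts in batch A and 170611 against 14482 in batch B). In senescent cells SST was below INS in batch A (117539 against 176735) and above it in batch B (134256 against 60953). Of 4 alpha-cell markers, LOXL4 was called higher and GCG lower (log2 fold change of GCG -2.36 in batch A and -0.77 in batch B). Immune cells carry class I genes at high levels, so their markers matter here. The 6 genes summed to 49.7 to 80.6 normalised read counts in non-senescent and 41.1 to 63.0 in senescent libraries, and CD3E was at 0 in all 12. Of the 3 that were tested, 0 were called higher and 1 lower, with a median log2 fold change of -0.18. The called gene was PTPRC, which encodes CD45 (log2 fold change -1.58, limma adjusted p 0.00720), on 68 against 26 reads. AIF1 was not called (-0.18, limma adjusted p 0.639). Fibroblast markers summed to 15.6 to 123 against 13.9 to 51.5 with PDGFRB at 0, and endothelial markers to 4.77 to 24.8 against 3.74 to 14.5 with VWF and PLVAP at 0, and none of the 3 tested genes of these lists was called. The part of other cell types in the changes of the class I genes was not tested.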

How the data were processed

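RNA of 12 EndoC-βH3 samples was measured by CEL-seq2, which reads transcript 3′ ends. By the study's methods and the submitters' processing notes, the authors used Cutadapt for trimming, Salmon 0.13.1 (GRCh38) for quantification and DESeq2 for normalisation. The annotation release and the use of molecular identifiers are not given in the sources used here. The deposited values are a signal, reads divided by 1 size factor per library, and 100% of 196021 non-zero values were whole multiples of 1 read within 0.001 reads. The authors' deposited mean, log2 fold change, error, test statistic and p-value columns were not used.

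Groups, batches and replicates came from titles. The main test was limma 3.58.1 (R 4.3.3, trend) on log2(value + 1), which understates changes of low genes, for genes with a mean of at least 5, with batch and group as terms. Single genes were also tested by a two-sided exact permutation within batches. Recovered reads were also tested with edgeR 4.0.16 and DESeq2 1.42.0. No library was a duplicate of another. Procedures were tested on simulated data.

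Members, lists and limits were chosen with earlier results of these data known. Named genes were all members, called list genes (up to 4 per direction, mean of at least 20), 10 fixed pathway genes (of which 1 is not reported here) and the 3 closest in profile to HLA-C, HLA-E and B2M. Positions are from GENCODE v44 (GRCh38), by symbol.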

Additional observations from a re-analysis of the deposited data

Results flagged for a closer look

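Of 34 sets of 4 to 6 libraries examined, 4 had a library that stood apart from the others by Dixon's criterion. Its nominal chance rate of about 1 in 20 does not apply to these 4, since a single non-zero library among libraries at 0 is always flagged. The sets are also not separate, because each batch B set is part of a set of 6. All 4 flagged sets were of genes at the limit of detection, with the other libraries at 0: HLA-B in non-senescent B3 (2.92 normalised read counts, 2 reads), TAP1 in non-senescent B4 (1.24, 1 read), TAP1 in senescent B2 (1.05, 1 read) and PSMB8 in senescent A1 (1.80, 4 reads).

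The rise of HLA-E differed between the batches, by 0.58 on the log2 scale (batch B minus batch A, limma adjusted interaction p 0.0744). Senescent means were 680.3 (batch A) and 649 (batch B), and non-senescent means were 522 and 335.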

How the results depend on the processing

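Besides leaving out libraries, 14 alternatives were run. HLA-C kept its call in 14 of 14 (log2 fold change -4.59 with a pseudocount of 0.1 to -2.70 with 8) and TAP2 in 13 of 13 (-2.19 with DESeq2 to -0.99 with a pseudocount of 8, not tested at a mean of at least 20). HLA-E kept it in 13 of 14 (0.38 to 0.96), the exception being batch A alone, where 0.38 (adjusted p 0.0100) was under the fold limit. B2M (-0.46 to -0.14) and TAPBP (0.15 to 0.26) were uncalled throughout, and no member changed direction. Called members numbered 5 without the filter instead of 3. Without the batch term, 2143 genes instead of 3237 and 4 pathway list genes instead of 7 were called; the cause was not tested. Scaling to the same total moved the median log2 fold change of all genes to -0.09. The HLA-E batch difference was lost with TMM scaling (0 members, adjusted p 0.1003) and ranged from 0 to 1 members with a library left out. Leaving out any library kept the calls of all 5 tested members, with HLA-C at -4.09 to -3.51. Same-numbered replicates did not deviate together (correlations of -0.05 to 0.02, 0 of 6 pairs best with their own number), so the numbers were not taken as pairs, and a replicate block gave 3211 genes and the same count of 3 members. Depth limits TAP1, HLA-B, HLA-F and PSMB8, with 3, 19, 38 and 32 non-senescent reads.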
